A study of Homo sapiens with 2 samples.

Results

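Interferon-stimulated genes are genes whose transcription is switched on by interferons, cytokines of which the type I kind is released by cells on sensing viral nucleic acid. The list here held 42 genes: the antiviral enzymes and restriction factors of the OAS, MX, IFIT and IFITM families, RNA sensors and editors, proteins of nuclear bodies, other interferon-induced genes, and 4 chains of the type I and type II interferon receptors. All probe sets whose gene symbol on the array platform was a member were taken. Of the 42 genes 41 had at least 1 such probe set (68 probe sets), against 11963 genes named on the whole array. IFI30 had none under its own symbol, and 1 probe set that carried more than 1 symbol, a member among them, was left out.

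Binding of type I interferon to IFNAR1 and IFNAR2 activates the kinases JAK1 and TYK2, which phosphorylate STAT proteins. A complex of STATs with IRF9 then binds the interferon-stimulated response element (ISRE) in promoters of induced genes. Interferon gamma signals through IFNGR1 and IFNGR2 to a STAT dimer that binds the gamma-activated sequence (GAS). Many lymphoid cells transcribe part of these genes without added interferon. Hodgkin lymphoma cells are known for active JAK-STAT signalling.

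The study profiled L-540, an established Hodgkin lymphoma line generally held to descend from a T cell. One culture was left untreated and the other was treated with vorinostat, an inhibitor of histone deacetylases, and no genotype change or added interferon is recorded for either. The labels gave neither dose nor duration. With 1 Affymetrix HG_U133A array a group there is no replicate error, no test and no p-value, and every ratio below compares 2 libraries rather than 2 conditions.

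The values are MAS5 signals, a linear intensity per probe set. The untreated array had a median signal of 126 and the treated one of 115. The floor was 68.9 signal units, the 40th percentile of all signals, and 61.2% of untreated and 58.8% of treated values exceeded it. For ratios, lower signals were raised to the floor; a probe set under it on both arrays was not measured, and one under it on 1 array gives a bound. Each gene is represented by 1 probe set, that of the highest mean log2 signal over the arrays, and ratios are vorinostat over untreated. Of 10 marker genes of Hodgkin cells 9 were above the floor on both arrays, among them TNFRSF8, which encodes CD30, with 10777 untreated and 3228 treated. BATF3 (6200 and 1825), FSCN1 (1176 and 691), TRAF1 (1027 and 666), EBI3 (404 and 208) and FUT4 (335 and 218) were lower too. The remaining measured genes of that list had a higher treated signal, namely IRF4 (12032 and 14699), CCR7 (6949 and 7713) and GATA3 (1174 and 1565). The summed signal of the 9 was 40074 untreated and 30814 treated. The Hodgkin chemokine gene CCL17 was under the floor on both. The T-cell markers CD3D and CD3G were also under it, and the summed signal of the 3 measured T-cell markers was 4921 untreated and 1209 treated, most of it from CD247 (4463 and 942). Of 4 B-cell markers and 3 markers of plasmacytoid dendritic cells, those with a probe set were under the floor on both arrays, as were the monocyte markers CD14 and LYZ. CSF1R, a further monocyte marker, had 207 untreated and 149 treated. Of 4 fibroblast markers COL1A1 was above the floor on both arrays (276 and 273), and of 4 epithelial ones KRT8 was (82.9 and 108). The part of the lower T-cell marker signal in the ratios below was not tested. In bulk RNA, fewer cells with a transcript and less of it per cell cannot be told apart.

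Of the 37 measured members, DDX60, OAS2 and MX2 had a treated signal at least 2-fold lower, GBP1 one at least 2-fold higher, and the other 33 differed by less. DDX60, a helicase-like protein of antiviral defence, was 3.41-fold lower, OAS2, an enzyme that makes the activator of RNase L, 2.97-fold lower, and the dynamin-like GTPase gene MX2 2.79-fold lower. The 3 lower members were 8.11% of those measured, against 5.12% of all 8277 measured genes, and the 1 higher member stood against 3.77%. These shares are close to the background, so the 2-fold counts set the members little apart from other genes. With differences of any size counted, the members leaned one way: 26 of 37 (70.3%) had a lower signal in the treated array, against 53.0% of all measured genes. The 26 include the 3 genes past 2-fold, and also log2 ratios near 0, as for ISG15 (-0.03), IFIH1 (-0.05) and OAS1 (-0.06). The members were chosen with earlier results of these data known, so their direction is not independent evidence. Their median log2 ratio was -0.22, against -0.04 for all measured genes. At 1.5-fold, 9 members (24.3%) were lower and 1 (2.70%) higher, against 15.5% and 12.7% of all measured genes. At 3-fold, DDX60 alone was lower and 0 members were higher, against 0.930% and 0.544%.

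Scaling both arrays to equal medians moved the median of all genes up by 0.12 in log2 ratio and the members with it. Then 22 members (59.5%) were lower, against 43.0% of all genes. Under that scaling 3.89% of all genes were at least 2-fold lower and 5.56% at least 2-fold higher, and the median member ratio was -0.09 beside 0.08 for all genes. DDX60, OAS2, MX2 and GBP1 stayed past 2-fold with it. The members were expressed over a wide range of signals, with 33 above the floor on both arrays, 2 at it in the untreated array and 2 at it in the treated one. IFI44L, MX1, XAF1 and IFNAR1 had probe sets but lay under the floor on both arrays.

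**Figure D1:**
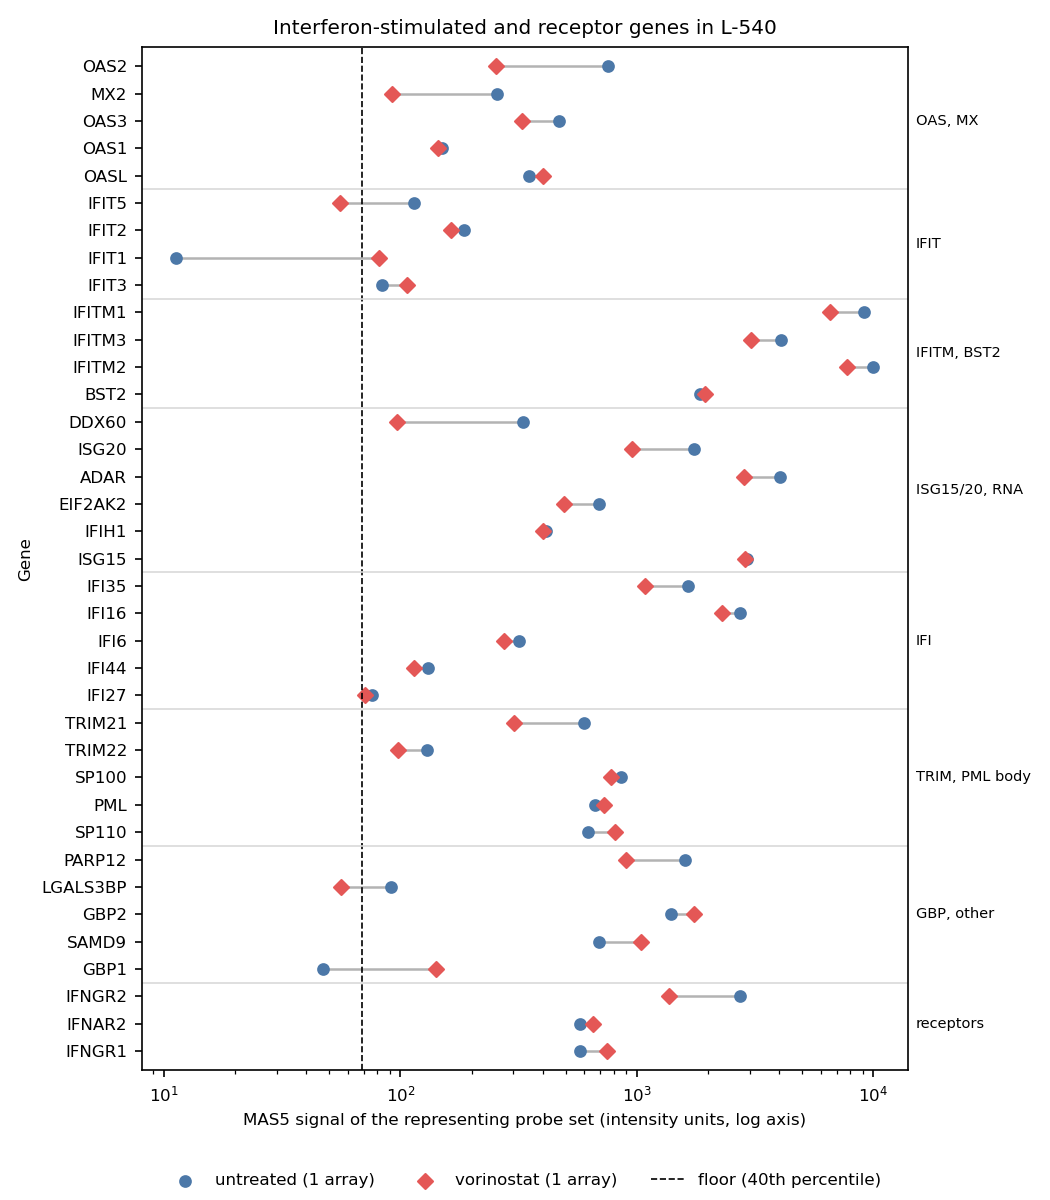
MAS5 signal on a log axis for the 37 measured members, with circles for the untreated and diamonds for the vorinostat array (1 array each) and the dashed line at the floor of 68.9. The wide gaps to the left belong to OAS2, MX2 and DDX60, and GBP1 and IFIT1 cross the floor upward; most other pairs lie close together.

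**Figure D2:**
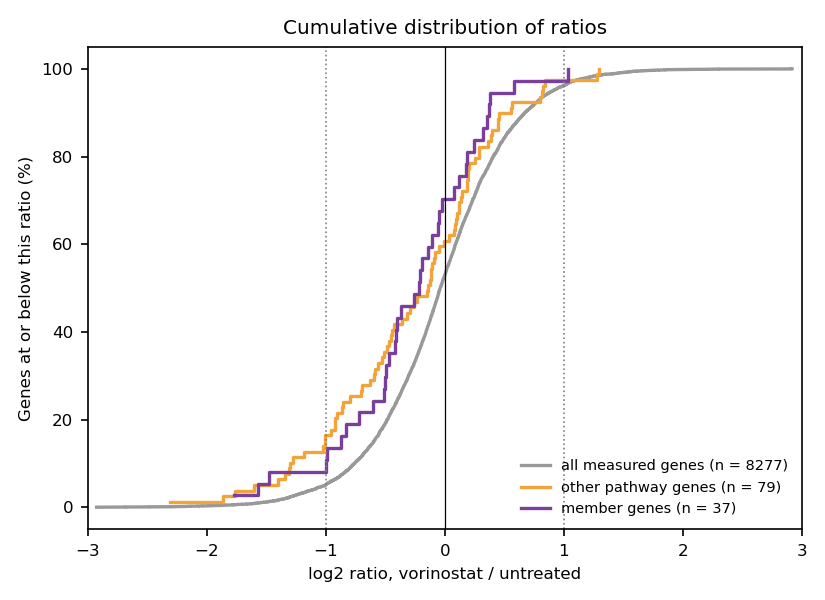
Cumulative share of genes (percent) at or below each log2 ratio for the 37 measured members, 79 measured other pathway genes and all 8277 measured genes; dotted lines mark 2-fold. The member curve lies to the left of the curve for all genes over most of its length, and crosses 0 at 70.3% against 53.0%.

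Promoter sequence was searched for the elements through which interferon signals are known to act. RefSeq promoter windows on GRCh38.p14, from 250 bases before to 50 bases after a start site, were found for 33 of the 42 members, 46 windows in all, and not for OAS2, OASL, MX2, IFIT2, IFITM2, TRIM22, GBP2, PML and IFNAR2. The ISRE core was searched as GAAA, any 2 bases and GAAA, and the GAS as TTCNNNGAA, on both strands; overlapping matches of a motif were counted separately. An ISRE core was present in at least 1 window of 22 of the 33 members (66.7%), against 4.38% of the 27305 genes with a window. A GAS match was present in 8 members (24.2%), against 9.38% of all genes. The windows shown are the 250 bases before the start site of 6 members with an ISRE core, chosen to span the lowest to the highest ratios of the genes with this motif. Capitals mark ISRE core matches, read on either strand.
DDX60 (chr4:168318753-168319002, minus strand): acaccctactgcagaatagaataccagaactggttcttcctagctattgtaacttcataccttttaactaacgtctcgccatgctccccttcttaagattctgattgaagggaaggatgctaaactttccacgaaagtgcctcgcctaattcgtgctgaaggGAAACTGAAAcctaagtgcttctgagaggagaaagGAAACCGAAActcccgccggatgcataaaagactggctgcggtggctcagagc
ISG20 (chr15:88638766-88639015, plus strand): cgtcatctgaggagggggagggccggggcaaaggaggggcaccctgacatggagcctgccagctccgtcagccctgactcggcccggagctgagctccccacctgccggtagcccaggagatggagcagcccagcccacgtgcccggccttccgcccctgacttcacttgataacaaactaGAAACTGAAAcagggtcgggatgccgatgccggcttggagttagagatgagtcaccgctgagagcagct
OAS3 (chr12:112938224-112938473, plus strand): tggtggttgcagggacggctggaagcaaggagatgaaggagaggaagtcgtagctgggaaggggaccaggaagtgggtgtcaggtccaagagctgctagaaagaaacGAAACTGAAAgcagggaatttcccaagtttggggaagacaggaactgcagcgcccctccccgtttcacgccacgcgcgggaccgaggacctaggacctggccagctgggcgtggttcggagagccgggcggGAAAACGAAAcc
ISG15 (chr1:1013247-1013496, plus strand): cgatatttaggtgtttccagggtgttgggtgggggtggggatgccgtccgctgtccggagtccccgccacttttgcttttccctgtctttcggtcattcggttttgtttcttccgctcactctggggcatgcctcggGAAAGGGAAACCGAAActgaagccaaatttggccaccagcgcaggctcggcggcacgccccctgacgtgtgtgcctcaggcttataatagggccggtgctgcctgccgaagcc
IFIT1 (chr10:89392373-89392622, plus strand): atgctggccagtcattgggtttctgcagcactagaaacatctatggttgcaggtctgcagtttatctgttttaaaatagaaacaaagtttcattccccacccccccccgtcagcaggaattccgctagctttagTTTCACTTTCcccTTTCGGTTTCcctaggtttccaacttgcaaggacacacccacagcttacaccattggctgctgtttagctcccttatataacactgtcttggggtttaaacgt
GBP1 (chr1:89065209-89065458, minus strand): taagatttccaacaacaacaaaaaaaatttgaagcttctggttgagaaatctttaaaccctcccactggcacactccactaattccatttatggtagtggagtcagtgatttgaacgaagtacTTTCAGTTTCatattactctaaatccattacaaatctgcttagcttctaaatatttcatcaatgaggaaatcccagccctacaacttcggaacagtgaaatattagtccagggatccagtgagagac

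DDX60, the measured member with the lowest ratio, held 2 ISRE cores in this window and a GAS match besides. GBP1, the member with the highest ratio, held 1. ISG15 held 2 that overlap each other, and its signal was nearly equal on the arrays. Among the 28 measured members with a window, which leaves out OAS2 and MX2, the 20 with an ISRE core had a median log2 ratio of -0.31 (15 of 20 below 0) and ranged from -1.77 to 1.04. The 8 without one had a median of -0.20 (6 of 8 below 0) and ranged from -0.996 to 0.38. Of all measured genes 53.0% were below 0. The search pattern is strict. OAS1, IFI35, IFI16 and SP110, counted as without it, have 2 GAAA repeats with 1 base between them in at least 1 window. A gene without a match may thus still hold a related element, and the comparison holds for this pattern only. Of these 28, the genes without the motif lay inside the range of those with it.

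**Figure D3:**
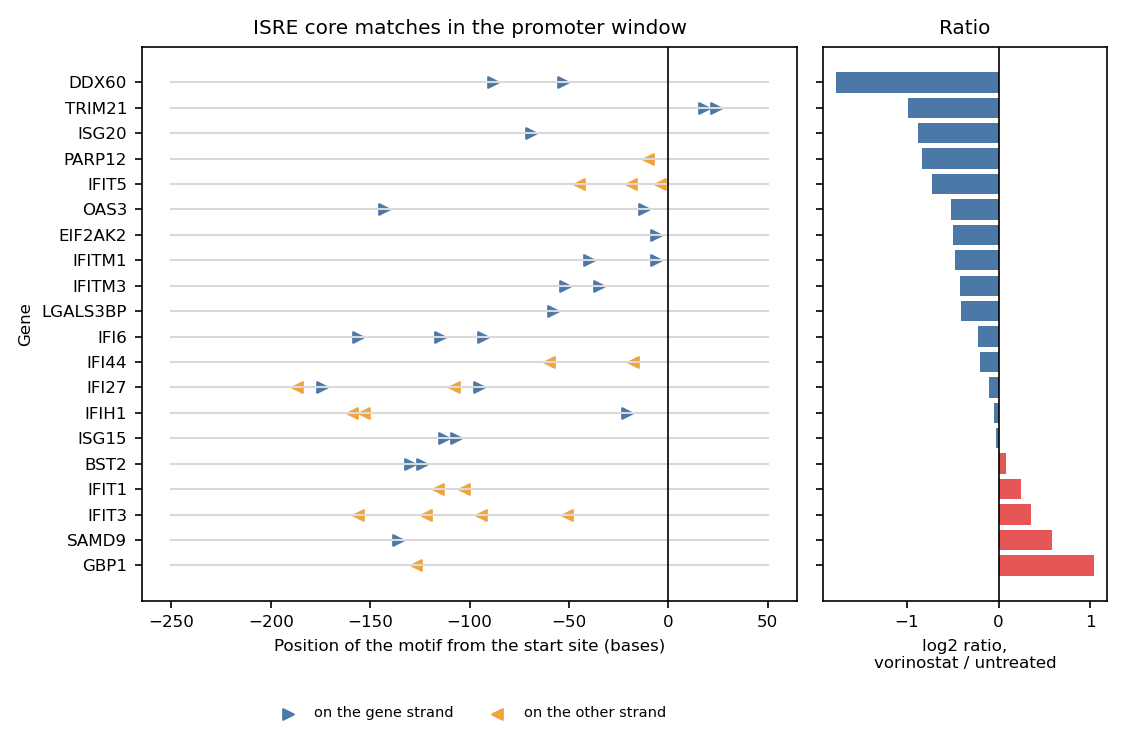
Left, position in bases from the start site of every ISRE core match in the promoter windows of the 20 measured members that have one (triangles point along the strand of the match; genes with more than 1 start site show all of them on 1 line). Right, log2 ratio of the same genes, vorinostat over untreated, from DDX60 at -1.77 to GBP1 at 1.04; most matches lie before the start site, and those of TRIM21 after it.

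The OAS enzymes make short oligoadenylates that activate the ribonuclease RNase L, and the MX proteins are GTPases that block incoming viruses. OAS2 had signals of 754 untreated and 254 treated on the probe set that represents it, and 258 and 165 on the other, which was 1.56-fold lower. OAS3 had 466 and 327, 1.43-fold lower. OAS1 had 150 and 144 on the probe set that represents it and 183 and 88.9 on its other one, which was 2.06-fold lower. The representing probe set carries a suffix for sequence shared between transcripts. Its log2 ratio was -0.06 as deposited and lay between 0.05 and 0.07 after loess, quantile and equal-median scaling. OASL, a relative of these enzymes without their synthetase activity, was slightly higher on both of its probe sets (350 and 399, 289 and 350). OAS1, OAS3 and OAS2 lie next to each other in the genome with 0 protein-coding genes between neighbours, and within this cluster the ratios ran from nearly 1 to about 3-fold lower.

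MX2 had 256 untreated and 92.0 treated. Its neighbour MX1, usually among the most strongly induced interferon targets, had 68.7 and 48.9, both under the floor. The treated signal of MX2 is near the floor, and at a floor set to the 60th percentile its log2 ratio was bounded at -0.17.

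The IFIT proteins bind foreign RNA and restrict its translation, and their signals were low in these cells. IFIT2 had 186 untreated and 163 treated and IFIT3 83.6 and 107. IFIT5 had 114 and 55.3 on one probe set, at least 1.65-fold lower, and 92.7 and 80.4 on the other. IFIT1 had 11.3 and 81.5, so it was under the floor untreated and just above it treated, at least 1.18-fold higher. At a floor set to the 25th percentile IFIT1 had a log2 ratio of at least 1.52. Adding an offset of 16 units instead of flooring gave 1.84. The 4 genes, which lie in 1 cluster, split evenly, 2 lower and 2 higher, with 0 at least 2-fold apart. Of all measured genes 53.0% were lower, and 5.12% and 3.77% were at least 2-fold lower and higher.

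The IFITM proteins sit in endosomal and plasma membranes and hinder virus entry. IFITM1 had 9095 untreated and 6555 treated, IFITM2 9976 and 7742, and IFITM3 4059 and 3033. All 3 were lower in the treated array (1.39-fold, 1.29-fold and 1.34-fold), beside 53.0% of all measured genes, and stayed lower under each scaling. They are neighbours with closely similar coding sequences, and each rests on a probe set with a shared-sequence suffix, so their values may not be independent. BST2, which tethers budding virions to the cell surface, had 1844 and 1945.

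Among the genes for ubiquitin-like modification and RNA sensing, ISG15, a ubiquitin-like protein attached to new proteins during an interferon response, had 2912 untreated and 2861 treated. ISG20, an exonuclease that degrades RNA, was lower on both probe sets, with 1751 and 954 on the one that represents it (1.84-fold lower) and 1017 and 421 on the other (2.41-fold lower). Its median over probe sets had a log2 ratio of -1.07, past 2-fold. DDX60 had 330 and 96.7, on a single probe set with a shared-sequence suffix, so without such probe sets it was not measured. At a floor set to the 60th percentile its log2 ratio was bounded at -0.53. IFIH1, which encodes the RNA sensor MDA5, had 414 and 401. The 2 enzymes that act on double-stranded RNA both had a lower signal. EIF2AK2, which encodes the kinase PKR, had 695 and 493 (1.41-fold lower), and the editing enzyme gene ADAR had 4030 and 2840 (1.42-fold lower). All 6 genes of this group had a lower signal as deposited, against 53.0% of all measured genes. ISG15 and IFIH1, however, had log2 ratios of 0.10 and 0.08 after scaling to equal medians.

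The IFI genes are named for their induction and share no single function. IFI35, a cytoplasmic partner of NMI, had 1642 untreated and 1079 treated, 1.52-fold lower. IFI16, a sensor of DNA, was lower on each of its 3 probe sets, with 2731 and 2280 on the brightest and 2477 and 1649 on the one with the lowest ratio (1.502-fold lower). IFI6, a mitochondrial protein, had 318 and 273. IFI44 had 131 and 114. IFI27 had 76.0 and 70.6, close to the floor on both arrays, and its log2 ratio of -0.11 became 0.02 with equal medians and 0.09 after quantile normalization. The 5 measured genes were all lower as deposited, against 53.0% of all measured genes. None was at least 2-fold apart, beside 5.12% of all measured genes lower and 3.77% higher.

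Of the genes for TRIM proteins and nuclear bodies, TRIM21, a receptor for antibody-coated virus inside the cell, had 597 untreated and 301 treated. Its ratio of 1.98-fold lower fell just short of the 2-fold rule. TRIM22, an antiviral ubiquitin ligase, had 130 and 97.9. PML, which organises the nuclear bodies named after it, had 8 probe sets, of which 7 were measured, and they went both ways. The probe set that represents it had 666 and 724, whereas another had 498 and 302, 1.65-fold lower. The nuclear body genes SP100 and SP110 went in opposite directions, each on all of its 4 measured probe sets: SP100 had 854 and 775 on the brightest one, SP110 622 and 805. Neither passed 1.5-fold.

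Among the remaining induced genes 3 of 5 measured had a higher signal in the treated array. The 2 lower ones were 40% of the group, against 53.0% of all measured genes, so this split is close to the background. GBP1, a GTPase that coats intracellular pathogens, had 47.0 untreated and 142 treated on one probe set, at least 2.06-fold higher, and 27.3 and 42.0, both under the floor, on the other. The call rests on the probe set with a shared-sequence suffix, and without such probe sets GBP1 was not measured. Its neighbour GBP2 had 1399 and 1749, 1.25-fold higher. SAMD9, a growth-restraining antiviral factor, had 694 and 1038, 1.496-fold higher. PARP12, an ADP-ribosyltransferase, had 1601 and 901, 1.78-fold lower. LGALS3BP, a secreted glycoprotein, had 91.4 and 56.1, at least 1.33-fold lower.

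The receptor chains differed among themselves. IFNGR2, the signalling chain of the interferon gamma receptor, had 2723 untreated and 1365 treated, 1.99-fold lower, just short of the 2-fold rule. After quantile normalization and loess its log2 ratio was -1.02 and -1.04, past it. IFNGR1, the ligand-binding chain, was higher on both probe sets, with 573 and 746 (1.302-fold) and 413 and 625 (1.51-fold). IFNAR2 of the type I receptor had 574 and 650 on one probe set and 31.5 and 27.5, both under the floor, on the other. Each of them carries a shared-sequence suffix, and without such probe sets IFNAR2 was not measured. IFNAR1 had 46.5 and 55.7, under the floor on both arrays. The 2 chains of the gamma receptor thus had ratios on opposite sides of 1, and the measured type I chain lay within 1.5-fold.

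**Figure D4:**
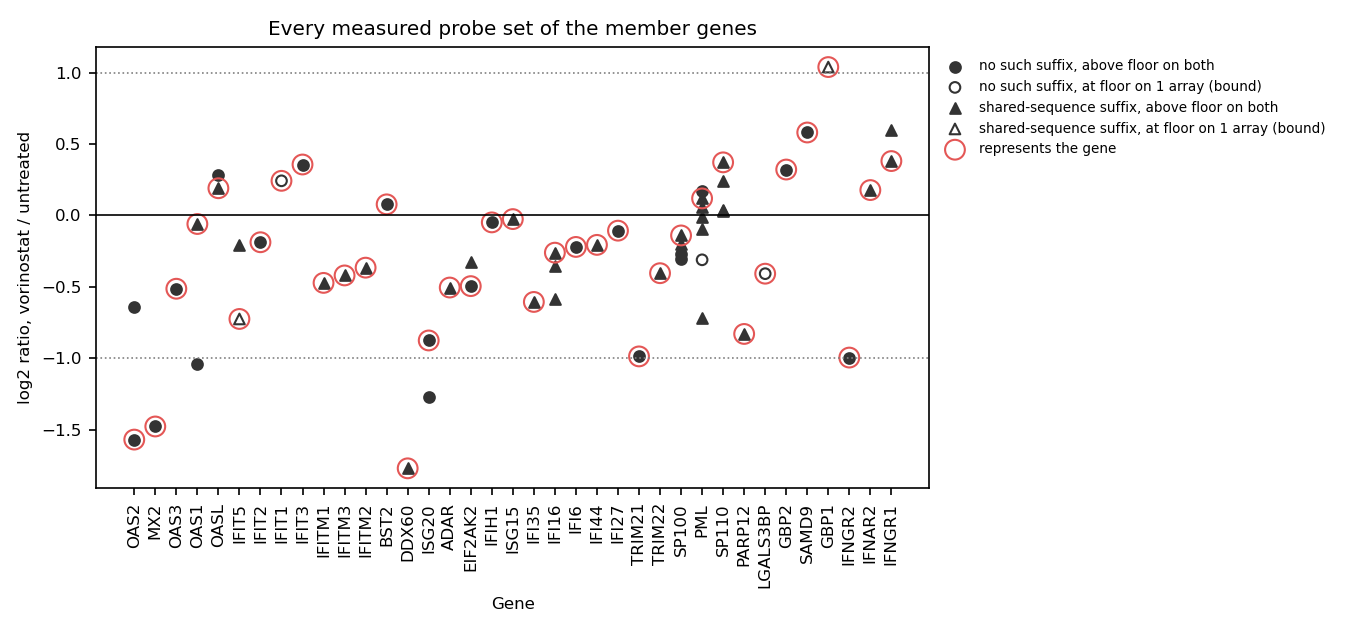
Log2 ratio, vorinostat over untreated, of the 58 measured probe sets of the members, by gene in the order of their roles. Triangles carry a shared-sequence suffix, open symbols are bounds, and a ring marks the probe set that represents the gene. The probe sets of OAS1, OAS2 and PML lie far apart, while those of SP100, SP110 and IFNGR1 stay on 1 side of 0.

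Agreement between probe sets of a gene is the only repeat that these arrays offer, and it does not replace a second culture. Of 11 members with more than 1 measured probe set, 7 were lower on all of them, 3 were higher on all and 1, PML, was mixed. The share of all genes whose probe sets agree was not computed, so these counts have no background beside them. Many of these probe sets, as for IFI16, SP110, IFIT5 and IFNGR1, carry a shared-sequence suffix and may not be independent. Over single probe sets, 5 of the 58 measured were at least 2-fold lower and 1 at least 2-fold higher, against 5.66% and 3.75% of the 12445 measured probe sets with 1 symbol. Those 5 belong to OAS1, OAS2, MX2, ISG20 and DDX60.

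Outside the members, 129 further genes of the interferon pathway were listed, of which 95 had a probe set and 79 were measured. Of these 13 (16.5%) were at least 2-fold lower and 2 at least 2-fold higher, beside 5.12% and 3.77% of all measured genes. Their median log2 ratio was -0.14. The list was drawn up with earlier results of these arrays known, so its direction is not independent evidence.

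Transcripts of the interferons themselves were scarce. Of 21 ligand genes 14 had a probe set and 4 were measured, all with a lower treated signal, against 53.0% of all measured genes. IFNG, which encodes interferon gamma, had 281 untreated and 145 treated, 1.94-fold lower. IFNA17 had 251 and 110, 2.27-fold lower, on a probe set with a shared-sequence suffix, while IFNA4 (76.4 and 57.0) and IFNA14 (104 and 50.6) were at the floor in the treated array. Interferon alpha genes are close copies of each other, so these probe sets cannot be assigned to 1 gene with certainty.

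Of 15 measured genes of signal transduction, 4 (26.7%) were at least 2-fold lower and 0 higher, against 5.12% and 3.77% of all measured genes. IRF9, the DNA-binding subunit of the complex that recognises the ISRE, had 750 untreated and 309 treated (2.43-fold lower). NMI, a STAT-binding partner of IFI35, had 2488 and 1002 (2.48-fold lower), and the coactivator gene CREBBP had 522 and 211 (2.47-fold lower). USP18, which removes ISG15 and dampens the type I receptor, had 290 and 143. Its ratio of 2.03-fold lower did not reach 2-fold under the 3 other scalings or the offset. The brightest of those within 2-fold were STAT3 (6875 and 9025), JAK1 (3853 and 5700) and the feedback inhibitor gene SOCS1 (3734 and 2991).

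The interferon regulatory factors bind related elements in promoters of interferons and of induced genes. Of 8 measured, IRF5 (4082 untreated and 825 treated, 4.95-fold lower), IRF7 (1195 and 472, 2.53-fold lower) and the related repressor gene PRDM1 (2712 and 801, 3.39-fold lower) were at least 2-fold lower, and 0 were at least 2-fold higher. These 3 were 37.5% of the group, against 5.12% of all measured genes, with 3.77% of all genes at least 2-fold higher. All 3 rest on probe sets with a shared-sequence suffix and were not measured without such probe sets. IRF4, the lymphoid member, had 12032 and 14699, IRF2 2798 and 1810, and IRF3 997 and 1141.

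In nucleic acid sensing 2 of 14 measured genes (14.3%) were at least 2-fold lower and 1 higher. The shares over all measured genes were 5.12% and 3.77%. TRIM25, the ubiquitin ligase that activates the sensor RIG-I, had 922 untreated and 349 treated (2.64-fold lower). TRAF3 had 535 and 266 (2.01-fold lower), which did not reach 2-fold under the 3 other scalings, the offset or the median over probe sets. SAMHD1, a nucleotide-degrading restriction factor, had 173 and 420 (2.43-fold higher), and a log2 ratio of 0.88, short of 2-fold, at a floor set to the 60th percentile. The brightest others were the adaptor gene MYD88 (1914 and 1058) and the kinase genes TBK1 (1436 and 1529) and IRAK1 (1242 and 684).

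Of 38 further measured interferon-induced genes, 3 (7.89%) were at least 2-fold lower and 1 higher, with a median log2 ratio of -0.09. Over all measured genes the shares were 5.12% and 3.77% and the median was -0.04, so these counts lie close to the background. The apolipoprotein L genes APOL6 and APOL3 had 470 untreated and 129 treated (3.64-fold lower) and 443 and 146 (3.04-fold lower). APOL3 rests on a probe set with a shared-sequence suffix, and at a floor set to the 60th percentile its log2 ratio was -0.95, short of 2-fold. The immunoproteasome gene PSMB10 had 497 and 247 (2.01-fold lower), short of 2-fold under the 3 other scalings and the offset. HERC5, the ligase that attaches ISG15 to proteins, had 899 and 2213 (2.46-fold higher). The brightest of those within 2-fold were B2M, which encodes the light chain of MHC class I (19856 and 20991), the peptide-loading gene TAPBP (4824 and 4549) and TRIM38 (2520 and 4453).

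**Figure D5:**
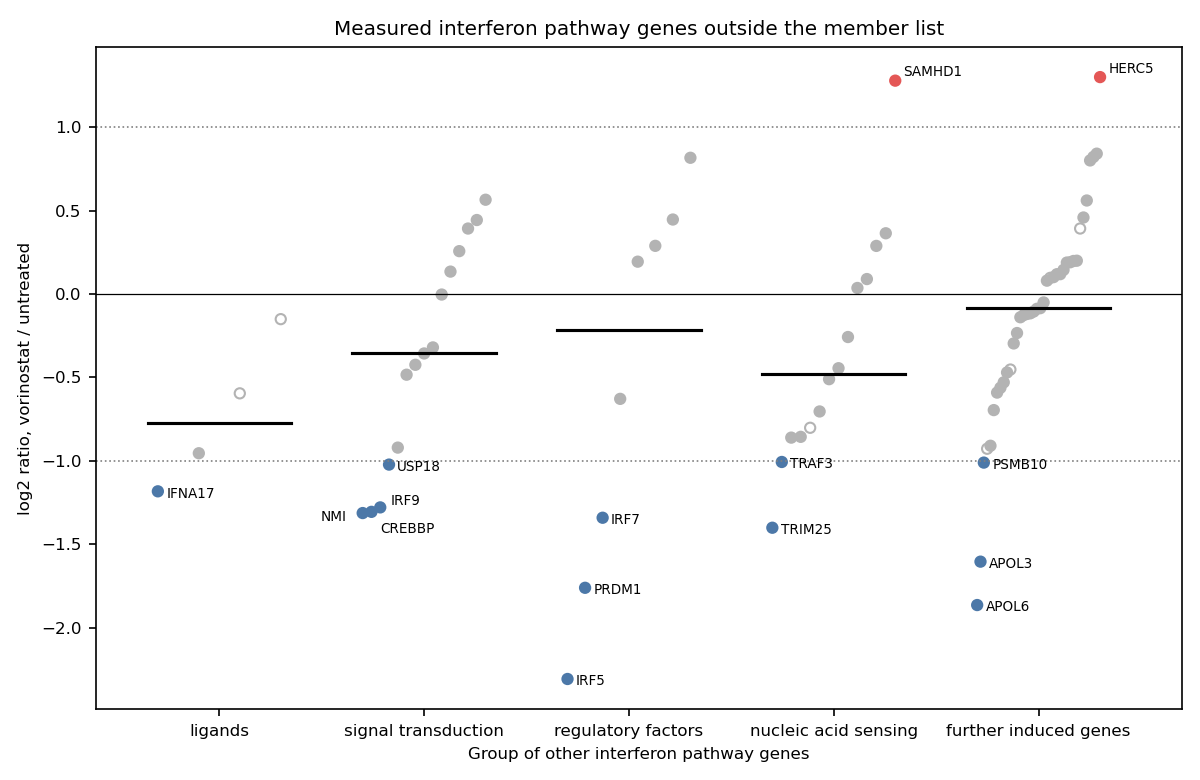
Log2 ratio, vorinostat over untreated, of 79 measured interferon pathway genes outside the member list, in 5 groups; bars are medians, dotted lines mark 2-fold, open symbols are bounds and named genes are at least 2-fold apart. Of the named genes 13 lie below and 2, SAMHD1 and HERC5, above; IRF5 is lowest at -2.31.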

How the data were processed

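The authors deposited 1 linear intensity for each probe set. Per the submitters' processing notes these came from MAS5, whose version, scaling target and detection calls the sources used here do not state. MAS5 scales each array by 1 factor, and the mean signal trimmed by 2% at each end was 500.2 on both arrays. Of 22283 probe sets 68 were controls. Of the other 22215, 19065 carried 1 gene symbol in the platform annotation, 1043 carried several and 2107 were not listed there; Entrez identifiers of 19059 matched RefSeq genes of GRCh38.p14, which changed 0 symbols. The floor was 68.9, the 40th percentile of pooled non-control signals. With 1 array per group no test was made. Genes at least 2-fold apart were counted beside the same share of all measured genes. Every member was named; of other pathway genes, those at least 2-fold apart and the 3 brightest others of each group. Members and lists were chosen with earlier results of these data known. A planned comparison of protein sequences was not run. Scripts used Python 3.11.15, pandas 2.3.3, statsmodels 0.14.6 (loess) and matplotlib 3.10.9, and were tested on simulated data. Alternatives were 3 other scalings, floors at the 25th and 60th percentiles, an offset of 16 signal units, the median over probe sets, no shared-sequence probe sets, the mean over members and thresholds of 1.5-fold and 3-fold.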

Additional observations from a re-analysis of the deposited data

How the results depend on the processing

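The members' median log2 ratio stayed below 0 in every alternative: -0.091 with equal medians, -0.15 after quantile normalization, -0.16 after loess, -0.21 for a floor set to the 25th percentile and for the offset of 16, -0.26 for one at the 60th, -0.36 with the median over probe sets, -0.22 without shared-sequence probe sets and -0.29 as a mean. The count of members at least 2-fold lower was 1 of 27 (OAS2) for the 60th-percentile floor, beside 4.32% of all genes measured there. At thresholds of 1.5-fold and 3-fold it was 9 and 1 of 37, beside 15.5% and 0.930%. In the other settings it was 3 or 4, beside 3.89% to 6.82% of all genes. Without shared-sequence probe sets the 3 were OAS1, OAS2 and MX2, of 21 members measured, beside 4.83%. OAS2 passed 2-fold in each of 9 settings with that threshold and MX2 in 8 of 9. DDX60 passed it in 7 of the 8 settings in which it was measured, and was not measured without shared-sequence probe sets. The count higher was 2 of 41 for the 25th-percentile floor and for the offset, where IFIT1 joined GBP1, beside 4.54% and 3.94% of all genes. It was 0 for the 60th-percentile floor, without shared-sequence probe sets and at 3-fold, beside 3.73%, 4.23% and 0.544%. For other pathway genes, 8 instead of 13 were lower without shared-sequence probe sets, beside 4.83% of all genes. At 1.5-fold 25 of 79 were lower and at 3-fold 4, beside 15.5% and 0.930%. For the 60th-percentile floor 1 instead of 2 was higher, with 6 at 1.5-fold and 0 at 3-fold, beside 3.73%, 12.7% and 0.544%. At the 60th-percentile floor MX2 and DDX60 (log2 ratios of -0.17 and -0.53), IFNA17 (-0.13), USP18 (-0.34), APOL3 (-0.95) and SAMHD1 (0.88) were still measured, and raising their lower signal to that floor reduced the ratio below 2-fold, while GBP1 was no longer measured. Leaving out shared-sequence probe sets removed genes from the counts, DDX60, IRF5, IRF7, PRDM1 and APOL3 among them. With equal medians, the log2 ratios of USP18, TRAF3 and PSMB10 moved from -1.02, -1.01 and -1.01 to -0.89, -0.88 and -0.88. As deposited these genes lay just past 2-fold. For the quantile and loess scalings the cause was not tested. No paired analysis was possible because each group holds 1 array. Signals near the floor, as for MX2, DDX60, GBP1 and the IFIT genes, limit how well these ratios are known, and with 1 array per group no spread between cultures can be given.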
